A study of Mus musculus with 6 samples.

Results

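H2-Q7 and H2-M2 are genes of the mouse major histocompatibility complex, and both were measured in sperm RNA of control and cadmium-exposed males. They were chosen by name, with earlier results of these data known. Each is represented by 1 catalogue probe, A_51_P262079 (NM_010394) for H2-Q7 and A_51_P191463 (NM_001347387) for H2-M2. They are 2 of the 45 genes with a known symbol on the array, which holds 60691 probes apart from controls. Male C57BL/6 mice were 5 weeks old at the start and drank control water or water with 100 mg/L CdCl2 for 10 weeks, and sperm was taken at 15 weeks. Each group had 3 biological replicates, 1 array each. The sources used here do not say whether a replicate was 1 animal or a pool. On each array the immunoprecipitated (IP) RNA of a sample carried the red dye Cy5 and the supernatant RNA of the same sample the green dye Cy3. What the antibody or bait bound in the IP is not given in these sources. No dye swap is described, so fraction and dye cannot be told apart within an array. The limma p-values and intervals below rest on the spread between the replicates within each group. In limma a gene's own spread is drawn toward that of all probes tested. Spread between scans is not part of any p-value, since each group came from 1 scan.

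Class I molecules of the major histocompatibility complex hold peptides from inside the cell in a groove of their heavy chain, pair with beta-2 microglobulin and show the peptide to T cells and natural killer cells at the cell surface. H2-Q7 and H2-M2 are class Ib genes, which vary less between individuals and are expressed in fewer tissues than the classical H2-K and H2-D genes. H2-Q7 encodes the Qa-2 antigen, a class I molecule that can be anchored in the membrane by a lipid, and it is a gene of the Ped locus, which is known for its link to the rate of cleavage of early mouse embryos. H2-M2 belongs to the distal M region of the complex, and less is known of its product. Mature sperm are largely silent in transcription, and much of their RNA is left from spermatogenesis or taken up in the epididymis.

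Both genes have close relatives. Names and gene order were read from RefSeq (GRCm38.p6), which places both genes on chromosome 17. H2-Q7 is 1 of 8 protein-coding H2-Q genes, lists Q9 among its synonyms, and lies between H2-Q6 and H2-Q10. H2-M2 is 1 of 12 protein-coding H2-M genes and lies between the olfactory receptor genes Olfr109 and Olfr110. The probe sequences were not used here, so signal from near-identical relatives, above all for H2-Q7, could not be told apart from signal of the named gene. No other gene of the class I pathway could be set beside them: of 42 listed genes, among them B2m, Tap1, Psmb8 and Nlrc5, 0 had a probe with a known symbol. The same held for the 4 metallothionein genes, whose products bind cadmium.

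The arrays themselves differed. The control arrays came from 1 scan and the Cd arrays from another, and the treatment therefore cannot be told apart from the scan. Of all spots outside controls and outlier flags, 28.4% to 45.0% were clearly above background for IP on the control arrays and 44.0% to 49.6% on the Cd arrays, and 35.3% to 44.2% against 45.7% to 50.0% in the supernatant. The log2 signal of the 5′ minus the 3′ control probe of mouse Gapdh, a possible sign of RNA quality, was -1.43 ± 0.03 in control IP and -1.86 ± 0.05 in Cd IP (SD, n = 3 each), without overlap between the groups (exact permutation p = 0.1, the smallest possible with 3 against 3). In the supernatant it was -0.37 ± 0.20 and -0.65 ± 0.11, again without overlap. The defining sperm markers Prm1, Prm2, Tnp1 and Akap4 have no probe with a known symbol. Of 11 listed sperm genes 3 have one: Cep41 was well above background in both channels on every array, Hyal3 in the IP channel on every array, and Spats1 on no array. Of 7 listed leukocyte genes only Il2 has a named probe, and it was well above background on no array. The lists of epididymal and other epithelial, Sertoli and Leydig cell markers have 0 named probes.

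Both class I genes were measured far above background. Each probe was printed in 10 spots per array, giving 60 spots per gene. For H2-Q7, 2 spots carried an outlier flag, 1 on control replicate 2 and 1 on Cd replicate 3, and 58 were kept. For H2-M2 all 60 were kept. Every kept spot was well above background in both channels and none was saturated. The median pixel signal was 23.4 to 57.8 times the local background in the IP channel for H2-Q7, and 19.8 to 48.6 times in the supernatant. For H2-M2 these ranges were 13.2 to 26.4 and 12.8 to 19.6. Spots of 1 array agreed closely, with a coefficient of variation of 2.48% to 7.61% (IP) and 4.71% to 9.80% (supernatant) for H2-Q7, and 3.01% to 6.08% and 5.16% to 10.06% for H2-M2. Spots of an array are technical repeats and were averaged into 1 value.

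The H2-Q7 signal in the IP fraction, as background-subtracted and dye-normalized intensity, was 8134, 11712 and 11855 in control replicates 1, 2 and 3 and 9056, 9252 and 8537 in Cd replicates 1, 2 and 3. On this scale the groups overlapped, since control replicate 1, the dimmest array, lay below all 3 Cd arrays. The supernatant intensity of H2-Q7 was 3607, 5233 and 5173 in control and 7223, 4123 and 3481 in Cd. The array of Cd replicate 1 held the highest of the 6 values and that of Cd replicate 3 the lowest.

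The H2-M2 intensity in the IP fraction was 4198, 6049 and 5343 in control and 4741, 4935 and 5529 in Cd. The Cd values all fell inside the control range. In the supernatant it was 2044, 2261 and 2350 in control and 2916, 2522 and 2444 in Cd. All 3 Cd values were above all 3 control values before the arrays were scaled to each other, and Cd replicate 1 was again the highest. On that scale the log2 difference of H2-M2 was 0.25, and so was the median over all 26878 probes. How many of these probes had all Cd values above all control values on that scale was not counted.

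**Figure D1:**
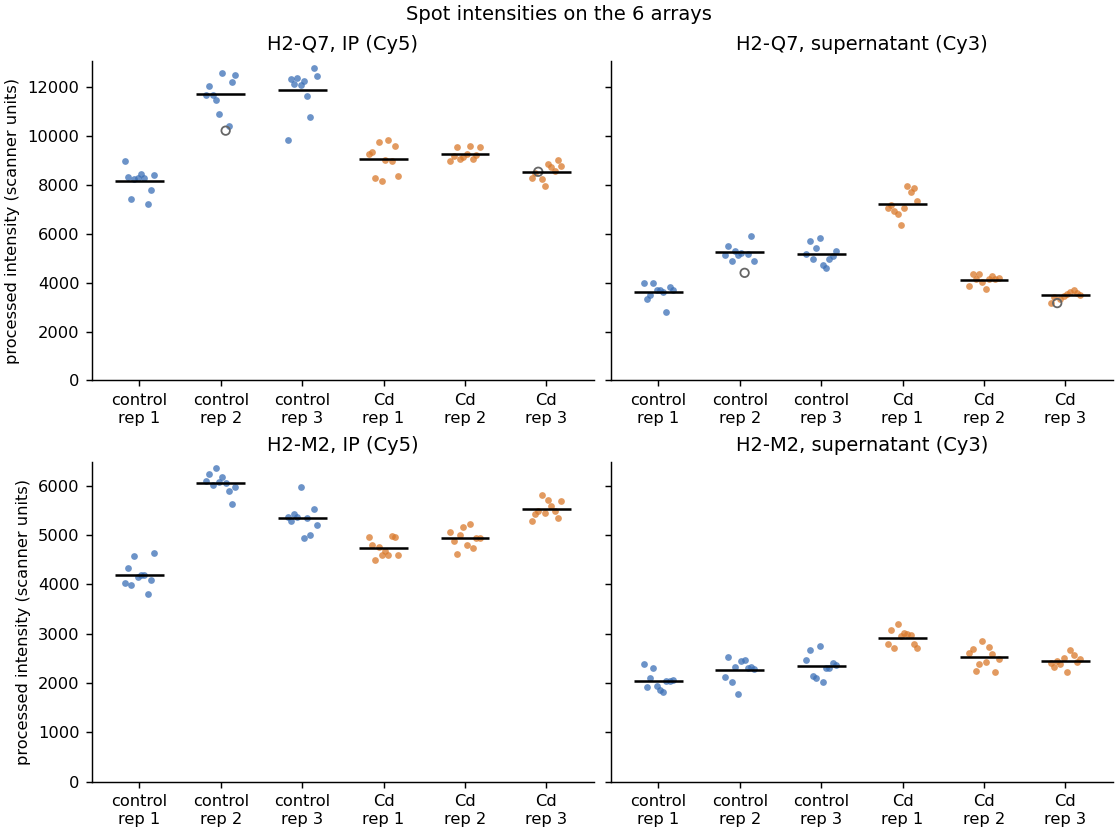
Processed intensity (scanner units) of every spot of the H2-Q7 probe (upper) and the H2-M2 probe (lower) in the IP and supernatant channels, by array; blue is control, orange is Cd, black bars are array means over kept spots, and open circles are spots with an outlier flag. The supernatant signal of H2-Q7 on Cd replicate 1 (mean 7223) stands above the other 5 arrays (3481 to 5233), while its IP signal (9056) does not.

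Transcripts of both genes gave more signal in the IP fraction than in the supernatant on every array. The IP over supernatant intensity of H2-Q7 was 2.25, 2.24 and 2.29 in control replicates 1, 2 and 3 and 1.25, 2.24 and 2.45 in Cd replicates 1, 2 and 3. Cd replicate 1 stood apart from the other 5 arrays, which spanned 2.24 to 2.45. For H2-M2 the same quotient was 2.05, 2.68 and 2.27 in control and 1.63, 1.96 and 2.26 in Cd. The 2 groups overlapped, with Cd replicate 1 lowest and control replicate 2 highest.

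After log2 transformation and subtraction of each array's median over all probes, the ratio of H2-Q7 in control sperm was 1.17 ± 0.02 and that of H2-M2 1.21 ± 0.22 (SD, n = 3 each). All 58 kept spots of H2-Q7 and all 60 of H2-M2 had a value above 0. Among 23788 probes measured in both channels, 84.7% had a lower control ratio than H2-Q7 and 85.4% a lower one than H2-M2. Among the 27 genes with a symbol in that test they stood in the middle, at ranks 13 and 12 from the highest. The 2 class I genes could not be ordered by their ratio: H2-Q7 minus H2-M2 was 0.14, -0.26 and 0.01 in control and -0.38, 0.20 and 0.12 in Cd. The sign thus changed between arrays in both groups.

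Comparing Cd with control asked whether the ratio of these RNAs changed relative to that of the other probes. The signals were dye-balanced and the ratio centred on each array's median. It therefore does not measure how much RNA moved between the fractions. For H2-Q7 the centred log2 ratio was 1.15, 1.18 and 1.18 in control and 0.33, 1.21 and 1.22 in Cd. The first of the Cd values lay far below the other 5, which ran from 1.15 to 1.22. The mean difference, Cd minus control, was -0.25 with a 95% interval from -0.94 to 0.43 (limma, adjusted p = 0.966). It came from 1 array. Without Cd replicate 1 it was 0.0395, with an interval from -0.60 to 0.68 (limma, adjusted p = 0.99996).

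For H2-M2 the ratio was 1.01, 1.45 and 1.18 in control and 0.71, 1.01 and 1.1 in Cd. The Cd mean was the lower one, but the groups overlapped between 1.01 and 1.1. The difference was -0.27, with an interval from -0.85 to 0.31 (limma, adjusted p = 0.964). Neither gene's ratio passed the test, and over all 23788 probes 0.0042% did (1 probe). At an unadjusted p under 0.05 it was 5.02%, and 5.15% had groups without overlap and Cd lower, neither of which held for H2-Q7 or H2-M2. The median difference over these probes was 0.04. In Cd the mean ratio was higher for 19 and lower for 8 of the 27 named genes. H2-M2 and H2-Q7 stood at ranks 2 and 3 from the lowest difference, after Dnajc11 (limma log2 difference -0.63, SE 0.27, adjusted p = 0.961), a mitochondrial protein of the DnaJ family. Over all 23788 probes, 17.5% had a difference as low as H2-M2 and 18.9% one as low as H2-Q7.

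**Figure D2:**
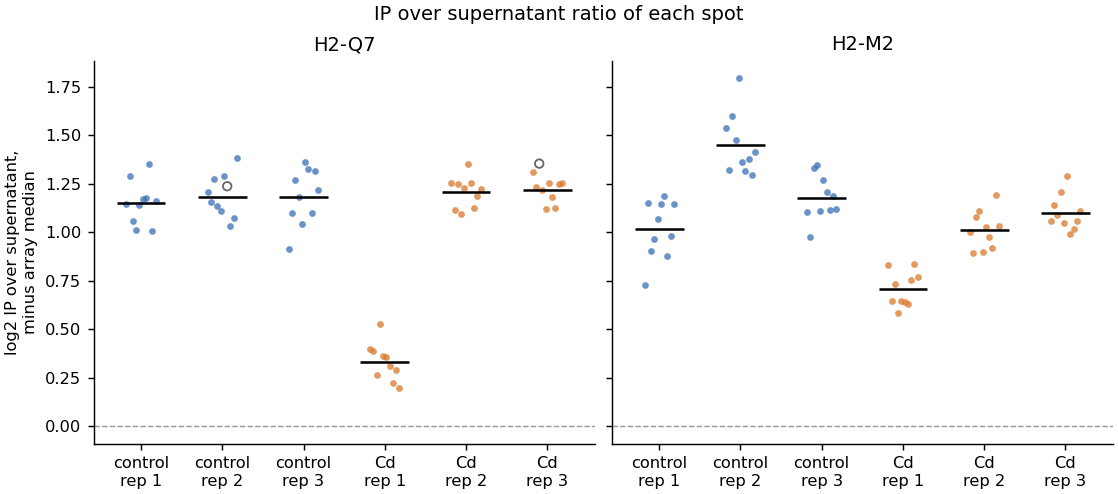
Log2 IP over supernatant ratio of each spot, minus the array's median over all probes, for H2-Q7 (left) and H2-M2 (right); colours and symbols show control (blue), Cd (orange), array means (black bars) and spots with an outlier flag (open circles). The H2-Q7 spots of Cd replicate 1 lie between 0.20 and 0.53 and do not reach any kept spot of the other arrays, of which the lowest is 0.91.

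On Cd replicate 1 the 10 H2-Q7 spots ranged from 0.20 to 0.53, and the lowest kept spot of the other 5 arrays was 0.91, on control replicate 3. The array's ratio lay 0.88 below the mean of the other 2 Cd arrays. The supernatant signal differed more than the IP signal. Scaled to each array's 75th percentile, the log2 supernatant signal of Cd replicate 1 was 0.84 above the mean of the other 2 Cd arrays, and the IP signal 0.06 below. Before dye normalization the background-subtracted supernatant intensity of H2-Q7 was 633 on Cd replicate 1 and 227 to 326 on the other 5 arrays. That of H2-M2 was also highest there, at 259 against 130 to 174. The linear factor that balanced Cy3 was lowest on that array, at 11.5 against 14.4 to 18.1. The IP intensity of H2-Q7 on Cd replicate 1 was 736, against 771 and 529 on Cd replicates 2 and 3 and 364 to 828 in control. The IP over supernatant quotient of H2-Q7 was 1.16 on that array and 1.60 to 3.33 on the others, a wider spread than after normalization. For H2-M2 the ratio of Cd replicate 1 was 0.35 below the mean of the other 2 Cd arrays. Across all probes, 1.74% had a ratio as far below on that array as H2-Q7 and 17.04% as far below as H2-M2. Of the 27 genes with a symbol, H2-Q7 was the only one as far below, and 16 lay below 0 by this measure.

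The level of each RNA was compared next, first in each channel and then in the sum of both. The scaled log2 IP signal of H2-Q7 was 4.78, 4.70 and 4.63 in control and 4.18, 4.23 and 4.24 in Cd. All 3 Cd arrays thus lay below all 3 control arrays, with a gap wider than the spread within either group. The difference was -0.49 (0.71 times control) (95% interval -0.995 to 0.02). Its p was 0.0568 unadjusted and 0.631 adjusted in limma (exact 2-sided permutation p = 0.1, the smallest possible). The limma SE was 0.22, while the SD over arrays was 0.07 in control and 0.03 in Cd. The limma interval and p of the H2-Q7 IP signal thus rest largely on the spread of other probes. Groups without overlap and with Cd lower were found for 8.63% of the 27413 probes of this test, and 9.59% of probes had a difference as low. In such bulk RNA, fewer cells with a transcript and less of it per cell cannot be told apart. The scaled supernatant signal of H2-Q7 was 3.51, 3.53 and 3.44 in control and 3.85, 3.07 and 2.96 in Cd. Here Cd replicate 1 was the highest of the 6 arrays and the other 2 Cd arrays were the lowest, and the difference was -0.20 with an interval from -0.81 to 0.41 (limma, adjusted p = 0.800). Without Cd replicate 1 it was -0.48, with an interval from -0.99 to 0.04 (limma, adjusted p = 0.555). Over the 6 arrays, 6.65% of the 26878 probes had groups without overlap and Cd lower, and neither class I gene was among them.

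The RNA level is the log2 of the summed channels, scaled in the same way. Since the dyes had been brought to a common intensity first, the sum does not reflect how much RNA each fraction held. For H2-Q7 it was 4.16, 4.10 and 4.04 in control and 3.92, 3.66 and 3.64 in Cd. Every Cd array again lay below every control array. The difference was -0.36 (0.78 times control) (95% interval -0.78 to 0.05). Its p was 0.0799 unadjusted and 0.513 adjusted in limma (exact permutation p = 0.1). Groups without overlap and with Cd lower made up 8.87% of the 30518 probes tested for the level.

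For H2-M2 the scaled IP signal was 3.82, 3.75 and 3.49 in control and 3.24, 3.32 and 3.62 in Cd. The highest Cd array, replicate 3, lay above the lowest control array, replicate 3, so the groups overlapped. The difference was -0.29, with an interval from -0.85 to 0.27 (limma, adjusted p = 0.766). In the supernatant the values were 2.69, 2.32 and 2.30 in control and 2.54, 2.36 and 2.44 in Cd. They gave a difference of 0.01, with an interval from -0.47 to 0.50 (limma, adjusted p = 0.986). The RNA level of H2-M2 was 3.25, 3.07 and 2.89 in control and 2.83, 2.81 and 3.04 in Cd, a difference of -0.18 with an interval from -0.61 to 0.26 (limma, adjusted p = 0.773). Its groups overlapped too, again through Cd replicate 3.

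**Figure D3:**
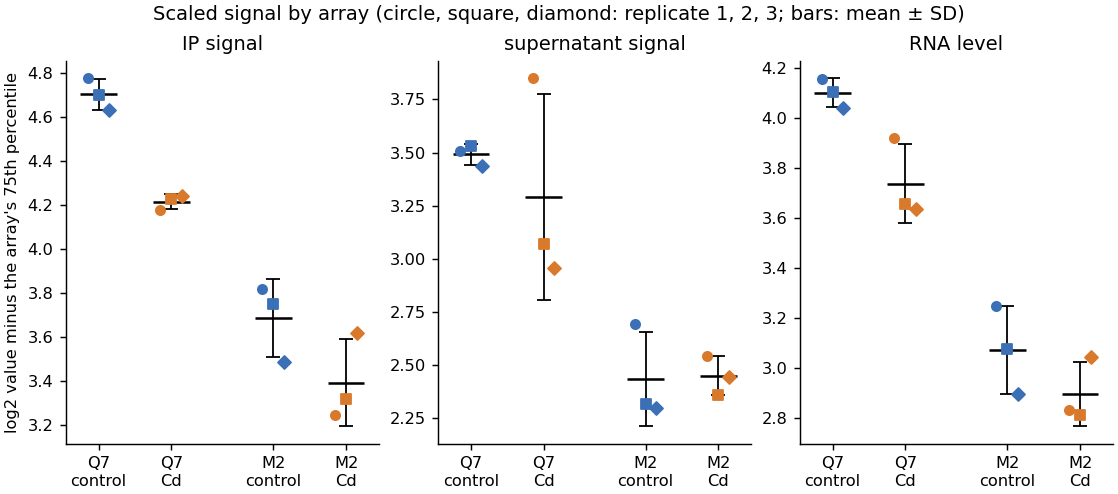
Log2 IP signal, supernatant signal and RNA level of H2-Q7 and H2-M2 minus the 75th percentile of each array; circles, squares and diamonds are replicates 1, 2 and 3, black bars are means ± SD (n = 3), and the panels have separate axes that do not start at 0. For H2-Q7 the IP values of Cd (4.18 to 4.24) lie below those of control (4.63 to 4.78); the H2-M2 groups overlap in every panel.

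Neither gene passed the test in any of the 4 measures. Over all probes, limma called 0% for the level, 0% for the IP signal and 0% for the supernatant signal, and at an unadjusted p under 0.05 it gave 3129 (10.3%), 2194 (8%) and 2570 (9.56%) probes. The intervals still allow a difference of size. For the IP signal of H2-Q7 the interval runs from 0.50 times to 1.01 times control, and for the level of H2-M2 from 0.65 to 1.20 times.

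**Figure D4:**
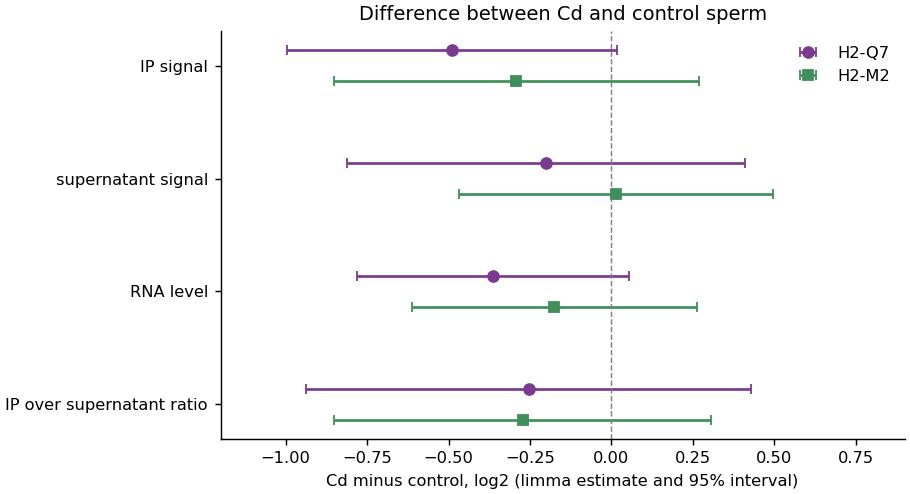
Difference between Cd and control (log2, limma estimate and 95% interval, 3 arrays per group) for H2-Q7 (circles) and H2-M2 (squares) in 4 measures. With the processing reported here all 8 intervals hold 0, and that of the H2-Q7 IP signal, from -0.995 to 0.02, does so by the narrowest margin. In some other settings the interval of the H2-Q7 IP signal lay below 0.

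The lower signals were shared by other named genes. Of the 36 genes with a symbol in the IP test, 25 had a lower and 11 a higher mean in Cd, with a median difference of -0.20 against 0.03 over all 27413 probes. H2-Q7 stood at rank 5 from the lowest and H2-M2 at rank 12. The 3 Cd arrays lay below the 3 control arrays for 8 of the 36, H2-Q7 among them, and for 8.63% of all 27413 probes. For the level, 28 of 36 were lower, with a median of -0.18 against -0.001 over all probes, and H2-Q7 and H2-M2 stood at ranks 10 and 19 from the lowest. Groups did not overlap, with Cd lower, for 9 of the 36 and for 8.87% of all 30518 probes. Most named genes thus had the lower mean in Cd, and the level difference of H2-M2 (-0.18) was close to their median. Its IP difference was -0.29 against a named median of -0.20. In the supernatant H2-M2 did not share the lower signal, with 0.01 against a median of -0.20 over 27 named genes. The Gapdh 5′ minus 3′ value given above moved in the same direction between the groups, and its part in these differences was not tested.

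The differences moved with the scaling and with the background and dye correction. The IP difference of H2-Q7 was -0.51 when scaled to the median, -0.60 with quantile normalization and -0.61 when scaled to 14 probes that their names mark as spike-ins, without overlap each time. Without any scaling it was -0.22. It was -0.11 in a setting that changed several steps at once, with normexp background correction (offset 50) of the median spot signals and loess in place of the deposited dye normalization. In both cases the groups overlapped. The median difference over all probes moved to 0.30 without scaling, so that even there H2-Q7 lay below it. For H2-M2 the IP difference was -0.42 with spike-in scaling, where its groups did not overlap, -0.02 without scaling and 0.08 with normexp and loess. With spike-in scaling the median IP difference over all probes was -0.10. The share of all probes without overlap was not counted in these other settings. The H2-M2 level came to 0.064 without scaling, where the median over all probes was 0.24, and to 0.13 with normexp and loess, where it was -0.025. The ratio differences of H2-Q7 and H2-M2 were -0.069 and -0.088 when centred on the spike-ins, -0.13 and -0.099 before dye normalization, and -0.15 and -0.13 with normexp and loess. In none of these settings did either gene pass the test.

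**Figure D5:**
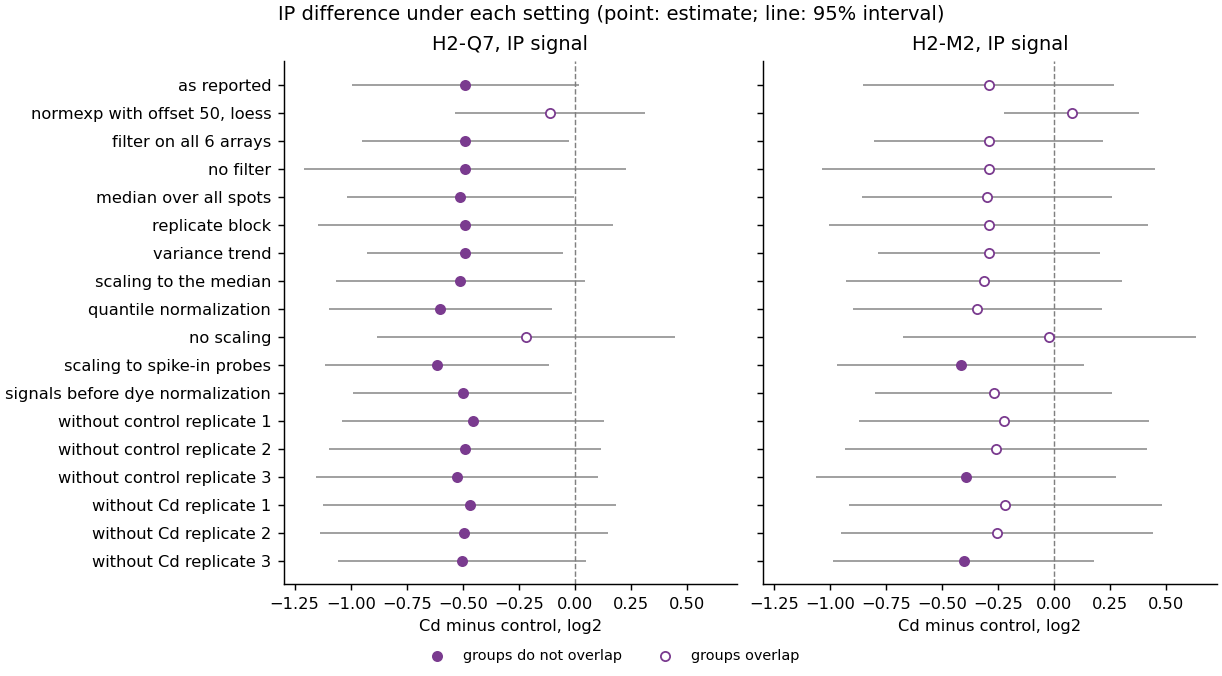
Difference in IP signal between Cd and control (log2, point, with its 95% interval as a line) for H2-Q7 (left) and H2-M2 (right) under each setting; filled points mark settings in which the 3 arrays of one group all lie below the other group (or the arrays left when 1 is left out). H2-Q7 stays below 0 throughout, from -0.61 to -0.11, and H2-M2 runs from -0.42 to 0.08.

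The arrays on which the genes were high or low were in part the same. Over the 6 arrays the Pearson correlation between H2-Q7 and H2-M2 was 0.74 for the ratio, 0.79 for the IP signal, 0.51 for the level and 0.30 for the supernatant signal. The arrays share their scaling and the split into groups, so these values are descriptive. Among 26 other named genes, the ratio of H2-Q7 was most like that of Dnajc11 (r = 0.77) and Nup50 (r = 0.77), a protein of the nuclear pore, and then H2-M2. The ratio of H2-M2 was most like that of Dnajc11 (r = 0.93), H2-Q7 and then Cpt1a (r = 0.62), which carries fatty acids toward mitochondrial oxidation. In RNA level the genes most like H2-Q7 among 35 were Alkbh4 (r = 0.88), a dioxygenase of the AlkB family, Carhsp1 (r = 0.88), an RNA-binding cold shock domain protein, and Gamt (r = 0.85), which makes creatine. H2-M2 came at rank 15 of that order. The genes most like H2-M2 in level were Trp53rka (r = 0.89), Ppara (r = 0.87), a nuclear receptor of lipid catabolism, and Hyal3 (r = 0.84), a hyaluronidase of sperm, and H2-Q7 came at rank 9. The level differences of these 6 genes ranged from -0.24 for Trp53rka to -0.45 for Hyal3, and none passed the test.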

How the data were processed

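Each of 6 two-colour arrays gave 1 table. The authors deposited the scanner output (Agilent Feature Extraction, version 11.0.1.1). Its spot intensity had the background removed and the dyes balanced by a linear factor, then lowess, per the file headers. The authors' log10 ratio column served only as a check and equalled that of the processed signals within 2.21e-07 for the spots of both genes. The authors' deposited series table has no row for either probe and was not used.

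Feature-outlier spots were removed, log2 values of a probe's spots averaged, ratios centred on each array's median, and IP, supernatant and summed signals scaled to each array's 75th percentile. A probe counted as detected where at least 50% of its spots were well above background. Probes were tested if detected on at least 3 arrays in both channels (ratio), 1 channel (level) or the channel concerned, with no missing value. Groups were compared with limma 3.58.1 in R 4.3.3 (lmFit, eBayes, Benjamini-Hochberg over all probes, threshold 0.05, 2-sided), tested on simulated data. For single values an exact permutation test (2-sided) was run. Figures were drawn with matplotlib 3.10.9. The number of arrays limits the precision.

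Gene symbols came from accessions matched to RefSeq (45 of 50 catalogue probes). Genes most like H2-Q7 or H2-M2 were the 3 named genes with the highest correlation over the arrays. The genes and lists were chosen with earlier results of these data known. Alternatives covered background correction, filters, centring, scaling, spot averaging, the replicate block, the variance trend and leaving out each array.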

Additional observations from a re-analysis of the deposited data

How the results depend on the processing

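No setting brought H2-Q7 or H2-M2 past the test, the smallest limma adjusted p being 0.404 (H2-Q7 IP signal, no filter). For the H2-Q7 level and IP signal, groups did not overlap in 15 of 17 alternatives. Filters, replicate block, variance trend and leaving out an array could not create overlap. Of the rest, no scaling and normexp with loess (offset 50) did. Signs turned in the following cases. With normexp and loess, the H2-M2 level became 0.13, the H2-M2 IP signal 0.077 and the H2-Q7 supernatant difference 0.052; the cause was not tested. With no scaling, the H2-M2 level became 0.064 and the H2-Q7 supernatant difference 0.031, where the medians over all probes also moved up, to 0.24 and 0.25. The H2-M2 supernatant difference became -0.039 with quantile normalization (cause not tested). No scaling, spike-in scaling of the level and of single channels, and signals before dye normalization were chosen after seeing the data. The ratio differences came closest to 0 with spike-in centring (-0.069 for H2-Q7 and -0.088 for H2-M2) apart from settings with an array left out. With each array left out they ranged from -0.40 to 0.0395 for H2-Q7 and from -0.37 to -0.16 for H2-M2. The level difference ranged from -0.45 to -0.31 and from -0.26 to -0.09, the IP difference from -0.52 to -0.45 and from -0.40 to -0.22, and the supernatant difference from -0.48 to -0.03 and from -0.054 to 0.14. The 1 probe called for the ratio was 0 with normexp and loess, the filter on all 6 arrays, no filter, the replicate block, spike-in centring and signals before dye normalization, and 0 to 1 with each array left out. For the supernatant, 0 probes became 17 with spike-in scaling and 1 with the filter on all 6 arrays, a variance trend, no scaling, and signals before dye normalization, and 0 to 1 with each array left out. The level gave 0 to 1 and the IP signal 0. Replicate numbers were not treated as pairs in the reported fits. Arrays sharing a number had deviations from their group means that correlated at -0.07, -0.05 and -0.12 for the ratio and -0.41, 0.43 and 0.004 for the level. Arrays with different numbers were not compared in this way, so these values cannot decide whether the numbers mark pairs. With the replicate block, which cannot move the difference in this balanced design, the unadjusted limma p of H2-Q7 went from 0.0568 to 0.121 for the IP signal (difference -0.49, adjusted p = 0.781) and from 0.0799 to 0.134 for the level (-0.36, adjusted p = 0.659). No block for the scan could be fitted, since each scan holds 1 group. The series table, which lacks both probes, gave no value.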
